A study of Mus musculus with 30 samples.

Results

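Ifnb1, the gene of the cytokine interferon beta, and 8 genes of interferon regulatory factors (Irf1, Irf2, Irf3, Irf4, Irf5, Irf7, Irf8 and Irf9) were followed through the first 2 h of the response of mouse macrophages to lipopolysaccharide (LPS), a bacterial cell wall product. They were taken by name from a table of 24761 gene symbols, with the transcript of highest mean kept for each, and all 9 were found. The 30 libraries came from macrophages grown for 6 days with the growth factor M-CSF from the bone marrow of wild-type (WT) C57Bl/6 mice. Of these, 9 libraries came from the cultures M2, M3 and M4, which had 2 h of 1 µM metaproterenol hemisulfate (MPH), an agonist of the β2 adrenergic receptor, before LPS. The other 21 came from the cultures D3 to D6, UKD, r1 and r2, which had 2 h of the vehicle DMSO instead. Each culture gave 1 library at 0 h (pretreatment only), 1 h and 2 h of LPS, labelled 100 ng/µL. The series asks how β2 adrenergic signalling alters early transcription in these cells. The labels do not say whether the cultures came from separate animals, so p-values measure the spread between these samples, which may be technical.

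Interferon beta is the type I interferon that macrophages make early after bacterial or viral products. The LPS receptor TLR4 signals through the adaptor TRIF to the kinase TBK1, which activates the protein IRF3, and IRF3 with NF-κB and ATF/AP-1 factors switches on Ifnb1. Secreted interferon beta then acts through the receptor IFNAR and the kinases JAK1 and TYK2 on a transcription factor complex that holds IRF9. This complex turns on interferon-stimulated genes, Irf7 among them, and IRF7 amplifies further interferon production. IRF1 is an inducible activator and IRF2 its relative that often opposes it. IRF5 takes part in inflammatory cytokine transcription, IRF4 competes with it for the adaptor MyD88, and IRF8 works with PU.1 in the identity of myeloid cells.

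The stretches of promoter of Ifnb1, Irf1 and Irf8 are shown because these transcripts moved with LPS below and each stretch holds a textbook motif of the pathway. Each is the 170 bases from 250 to 81 before the start annotated by RefSeq (build GRCm38.p6, which differs from the mm9 build of the expression values), written 5′ to 3′ on the gene's strand with the motifs in capitals. All 9 genes matched the RefSeq promoter table, 3 of them with 2 starts, of which the first is shown.
Ifnb1 (chr4:88522875-88523044, minus strand): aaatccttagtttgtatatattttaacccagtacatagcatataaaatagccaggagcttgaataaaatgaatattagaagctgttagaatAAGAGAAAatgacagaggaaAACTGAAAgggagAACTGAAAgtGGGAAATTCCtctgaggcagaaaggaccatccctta
Irf1 (chr11:53769764-53769933, plus strand): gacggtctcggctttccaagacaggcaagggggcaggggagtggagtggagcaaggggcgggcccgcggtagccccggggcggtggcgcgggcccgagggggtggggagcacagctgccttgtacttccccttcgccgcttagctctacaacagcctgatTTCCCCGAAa
Irf8 (chr8:120736108-120736277, plus strand): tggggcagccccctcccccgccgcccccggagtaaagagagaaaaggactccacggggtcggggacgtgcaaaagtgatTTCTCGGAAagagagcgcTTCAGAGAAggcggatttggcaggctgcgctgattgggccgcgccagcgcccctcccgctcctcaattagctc
In Ifnb1 the capitals mark 3 copies of the IRF core AANNGAAA and a κB-like motif GGGNNNTTCC, the kinds of element through which IRF3 and NF-κB are known to act on this promoter. In Irf1 and Irf8 they mark the STAT motif TTCNNNGAA, once in Irf1 and in 2 places in Irf8. On both strands, AANNGAAA occurred in 15.7%, GGGNNNTTCC in 2.89% and TTCNNNGAA in 4.97% of the 32851 promoter stretches of this length, so a match is a description and not a site. Irf2 also held AANNGAAA in 2 overlapping copies and TTCNNNGAA. Also searched were the tandem GAAANNGAAA (2.11% of stretches), found in Irf2 alone within those copies, the cyclic AMP half-site TGACG (9.86%), found in Irf7 alone, and the AP-1 motif TGANTCA (4.68%), found in none of the 9. Irf4 and Irf5, which also moved with LPS below, held none of the motifs searched, and neither did Irf3 and Irf9. The other starts of Irf1, Irf8 and Irf9, which are not shown, held none either.

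Values are RPKM, reads scaled by transcript length and library depth, which can be compared between genes. Library depth, estimated from the steps between low values, ran from 5.38 to 92.1 M reads (M, 10 to the sixth power) with a median of 41.3 M, and 3 DMSO libraries of 1 h (D4, D6, UKD) had the least. The cells carried macrophage markers, with Csf1r between 167 and 381 RPKM and Lyz2 between 2727 and 5714 RPKM. All 8 markers listed reached 1 RPKM, Mertk in 28 libraries (lowest 0.84 RPKM) and the others in all 30. None of 6 conventional dendritic cell markers reached 1 RPKM in any library. Of 5 plasmacytoid dendritic cell markers 2 reached it, Tcf4 in all 30 libraries (2.45 to 6.45 RPKM) and Runx2 in 14. Of 7 neutrophil markers 6 reached it, Ly6g stayed at or below 0.36 RPKM, and the summed list lay between 39.3 and 87.2 RPKM under MPH and between 5.24 and 89.0 RPKM under DMSO. In bulk RNA, fewer cells of a type and less RNA per cell cannot be told apart. The 2 h library of r1 was the highest 2 h DMSO library in Irf1 and Irf8 and the lowest in Irf4, and the 1 h library of M4 had the highest Irf8 of the 9 MPH libraries, so results that rest on them are given without them too. Libraries of the same culture at 2 times deviated together from their group means, with correlations across genes between 0.62 and 0.91 in 30 pairs. So did M2 with D3, M3 with D4 and M4 with D5, with correlations between 0.74 and 0.90 at the same time, although no label ties these cultures to each other. The other 27 pairs of MPH and DMSO libraries had correlations between -0.64 and 0.46.

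Before LPS the family spanned a wide range. In DMSO cultures at 0 h the median level was 37.2 RPKM for Irf5, 19.7 for Irf8, 12.2 for Irf9, 8.17 for Irf1, 7.13 for Irf3, 6.23 for Irf2, 5.29 for Irf7, 0.22 for Irf4 and 0.04 for Ifnb1. Irf5 lay above Irf8, Irf7 above Irf4 and Irf4 above Ifnb1 in every library, while the other neighbours in this order overlapped. At 2 h the order of the DMSO medians was Irf1 at 123 RPKM, Irf5 at 53.6, Irf7 at 18.0, Irf9 at 15.7, Irf3 at 8.11, Irf2 at 6.99, Irf8 at 6.09, Ifnb1 at 3.98 and Irf4 at 0.89, and every pair of neighbours overlapped. Irf1 had moved from the middle of the family to its top, and Irf8 from second place to near the bottom.

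**Figure D1:**
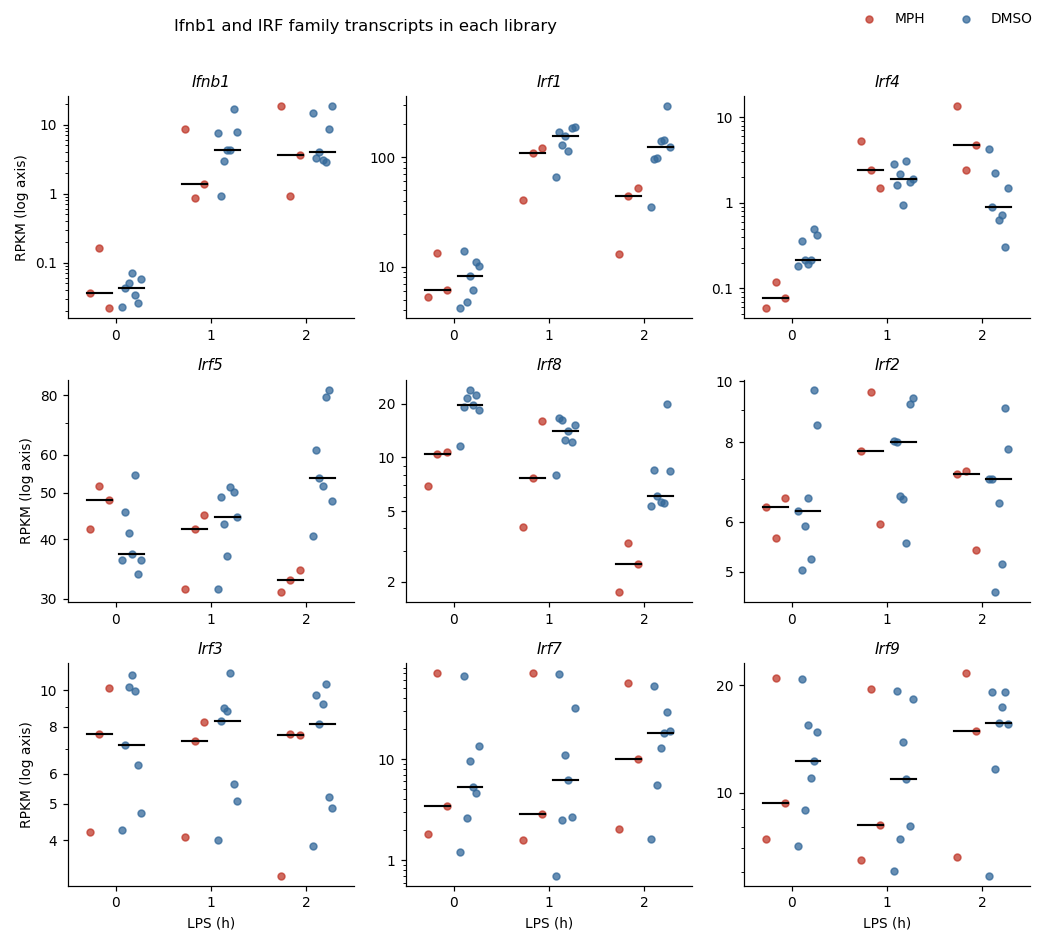
Level of each of the 9 transcripts in every library (RPKM, log axis) against hours of LPS. Red points are the 3 MPH cultures, blue points the 7 DMSO cultures, and black bars are medians; Ifnb1 and Irf1 lie higher at 1 h and 2 h than at 0 h in every culture of both treatments, and Irf8 lies lower at 2 h in all of them.

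Under MPH, 2 of the 9 genes passed limma's test at 1 h against 0 h (3.08% of all 10239 genes did), 5 at 2 h against 0 h (20.7%) and 1 at 2 h against 1 h (3.24%), each with a Benjamini-Hochberg adjusted p below 0.05. Under DMSO, 3 of the 9 passed at 1 h against 0 h (20.3% of 10212 genes), 5 at 2 h against 0 h (54.1%) and 2 at 2 h against 1 h (22%). Under DMSO at 2 h, against 0 h and against 1 h, the share among the 9 was thus close to that among all genes. All 9 passed the filter of 1 RPKM in 3 libraries, but Ifnb1 and Irf4 reached 1 RPKM only after LPS. They thus had to differ from 0 h to be tested at all, and they support no count. Both are among the genes counted above at 1 h and 2 h against 0 h, except Ifnb1 at 1 h under MPH. The counts against 0 h are therefore a description only. Log2 differences below are on log2(RPKM + 0.5), which compresses changes of low genes, and ± marks an SE unless an SD is named. Between times, that SE also holds the spread between cultures, which a fit with the culture as a block removes.

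Ifnb1, the ligand, was barely detected before LPS and rose in every culture. In the MPH cultures M2, M3 and M4 it stood at 0.0362, 0.162 and 0.0218 RPKM at 0 h, at 8.50, 0.861 and 1.38 RPKM at 1 h and at 18.4, 0.924 and 3.61 RPKM at 2 h. In the 7 DMSO cultures the lowest, median and highest values were 0.0224, 0.0428 and 0.0697 RPKM at 0 h, 0.935, 4.34 and 16.8 RPKM at 1 h and 2.84, 3.98 and 18.6 RPKM at 2 h. Every library with LPS lay above every library without it. All 30 values were whole multiples of 1 read step to within 1%. At 0 h, 7 of the 10 values equalled 1 step and 3 equalled 2 steps, and since no value in the table is 0, a step of 1 can stand for no read. They are upper limits, so no ratio of RPKM against 0 h is given, and the log2 differences that follow have a size set in part by the constant of 0.5. With LPS the values stood for 18 to 380 steps at 1 h and 22 to 202 steps at 2 h under MPH, and for 7 to 592 and 42 to 1320 steps under DMSO. Between 1 h and 2 h the transcript was higher in 3 of 3 MPH cultures and in 4 of 7 DMSO cultures.

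On the log2 scale Ifnb1 under MPH was 2.32 ± 0.82 above 0 h at 1 h (limma adjusted p = 0.207) and 3.08 ± 0.82 above it at 2 h (adjusted p = 0.0127). The 1 h difference passed with the culture as a block (adjusted p = 0.0201, where 12.1% of all genes and 4 of the 9 passed) and with a pseudocount of 0.1 (3.82, adjusted p = 0.029). The 2 h call was lost without M2 (adjusted p = 0.0718) or M4 (adjusted p = 0.0867). With the culture as a block the 2 h difference had an adjusted p of 0.000771. Under DMSO the differences were 3.31 ± 0.39 at 1 h (adjusted p = 3.58e-06) and 3.60 ± 0.39 at 2 h (adjusted p = 3.97e-07), and leaving out any culture kept both calls.

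Irf1, an activator that NF-κB is known to induce, had the largest response of the 8 factors under DMSO. Under MPH it stood at 5.31, 13.3 and 6.14 RPKM at 0 h in M2, M3 and M4, at 40.8, 109 and 121 RPKM at 1 h and at 13.2, 44.6 and 52.5 RPKM at 2 h. Under DMSO its lowest, median and highest values were 4.17, 8.17 and 13.9 RPKM at 0 h, 66.3, 156 and 189 RPKM at 1 h and 34.8, 123 and 293 RPKM at 2 h, the last in r1. All libraries with LPS except M2 at 2 h lay above all of those without it. The log2 rise was 3.34 ± 0.60 at 1 h (limma adjusted p = 0.0024) and 1.98 ± 0.60 at 2 h (adjusted p = 0.027) under MPH, and 4.07 ± 0.31 (adjusted p = 6.95e-09) and 3.79 ± 0.31 (adjusted p = 9.67e-09) under DMSO. The 1 h call under MPH was lost without M4 (adjusted p = 0.0712). The 2 h call was lost without M3 (0.0994) or M4 (0.26), and with no filter on low values (0.0567). With the culture as a block the adjusted p under MPH was 2.82e-06 at 1 h and 0.000119 at 2 h. From 1 h to 2 h Irf1 was lower in 3 of 3 MPH cultures, by 1.35 ± 0.60 on the log2 scale (adjusted p = 0.24), which passed with the culture as a block (adjusted p = 0.00453, where 32.9% of all genes and 3 of the 9 passed). In DMSO cultures it was lower at 2 h than at 1 h in 5 of 7, a difference of -0.27 ± 0.31 (adjusted p = 0.61).

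Irf4, a factor that limits MyD88 signalling and is used in alternatively activated macrophages, was low and rose under both treatments. Under MPH it stood at 0.0586, 0.118 and 0.0776 RPKM at 0 h in M2, M3 and M4, at 5.27, 2.45 and 1.49 RPKM at 1 h and at 13.5, 2.42 and 4.68 RPKM at 2 h. Under DMSO its lowest, median and highest values were 0.181, 0.216 and 0.495 RPKM at 0 h, 0.938, 1.89 and 3.07 RPKM at 1 h and 0.308, 0.893 and 4.20 RPKM at 2 h. The lowest 2 h value belonged to r1, the only culture in which Irf4 was lower at 2 h than at 0 h. Like Ifnb1, Irf4 passed the filter only through libraries with LPS, so the adjusted p-values of both against 0 h carry that selection. The log2 rise was 2.47 ± 0.53 at 1 h (limma adjusted p = 0.0112) and 3.35 ± 0.53 at 2 h (adjusted p = 0.000263) under MPH, and 1.63 ± 0.30 (adjusted p = 0.000607) and 1.10 ± 0.30 (adjusted p = 0.00466) under DMSO. Without the 2 h library of r1 the DMSO rise at 2 h was 1.30 (adjusted p = 0.00114). The 1 h call under MPH was lost without M2 (adjusted p = 0.0953) or M3 (adjusted p = 0.0549). With the culture as a block the 1 h difference under MPH had an adjusted p of 0.000969.

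Irf5, the most abundant member before LPS, moved in opposite directions under MPH and DMSO. Under MPH it stood at 42.0, 51.7 and 48.4 RPKM at 0 h in M2, M3 and M4, at 31.4, 42.0 and 44.9 RPKM at 1 h and at 31.0, 32.8 and 34.4 RPKM at 2 h. Under DMSO its lowest, median and highest values were 33.9, 37.2 and 54.5 RPKM at 0 h, 31.4, 44.5 and 51.5 RPKM at 1 h and 40.6, 53.6 and 82.2 RPKM at 2 h. It was lower at 2 h than at 0 h in 3 of 3 MPH cultures and higher in 7 of 7 DMSO cultures. The share of all genes with such a split was not counted. The difference between these responses itself had an adjusted p of 0.357 in limma and of 0.00092 with the culture as a block. The log2 difference at 2 h was -0.52 ± 0.18 under MPH (limma adjusted p = 0.047) and 0.52 ± 0.13 under DMSO (adjusted p = 0.00236). The MPH call was lost without D5 (adjusted p = 0.0809), D6 (0.0725), M2 (0.0845), M3 (0.267) or M4 (0.166). It was also lost after median-of-ratios scaling (-0.31, adjusted p = 0.285) and with no filter on low values (adjusted p = 0.0954). With the culture as a block the MPH difference had an adjusted p of 0.000197. With D3 to D6 alone the DMSO rise was 0.36 (adjusted p = 0.0974).

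Under MPH the log2 difference of Irf5 at 1 h was -0.27 (limma adjusted p = 0.798), and the median over all genes was -0.09. With the culture as a block the Irf5 difference had an adjusted p of 0.0485, where 12.1% of all genes and 4 of the 9 passed. From 1 h to 2 h the Irf5 difference was -0.25 ± 0.18 under MPH (adjusted p = 0.524). With the block it had an adjusted p of 0.0352, where 32.9% of all genes and 3 of the 9 passed. Under DMSO most of the rise lay between 1 h and 2 h, with 0.10 ± 0.13 at 1 h (adjusted p = 0.609) and a further 0.42 ± 0.13 by 2 h (adjusted p = 0.0263). This last call was lost without D5 (adjusted p = 0.0574), D6 (0.0741) or UKD (0.091), and without the 2 h library of r1 (0.32, adjusted p = 0.0699). It was also lost with no filter on low values (0.0553), with no covariate (0.0767) and without the 1 h libraries of D4, D6 and UKD (0.0961). With the block this difference had an adjusted p of 0.00149, where 49.2% of all genes passed.

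Irf8, a partner of PU.1 that marks the myeloid lineage, fell after LPS under both treatments. Under MPH it stood at 6.89, 10.5 and 10.8 RPKM at 0 h in M2, M3 and M4, at 4.05, 7.68 and 16.01 RPKM at 1 h and at 1.76, 3.29 and 2.52 RPKM at 2 h. Under DMSO its lowest, median and highest values were 11.6, 19.7 and 24.1 RPKM at 0 h, 8.0, 14.1 and 16.6 RPKM at 1 h and 5.33, 6.09 and 20.1 RPKM at 2 h. The highest 2 h value was again that of r1, and the others reached 8.54 RPKM at most. The log2 difference at 2 h was -1.72 ± 0.38 under MPH (limma adjusted p = 0.00421) and -1.28 ± 0.22 under DMSO (adjusted p = 9.56e-05), or -1.48 without the 2 h library of r1 (adjusted p = 2.61e-06). At 1 h it was -0.19 ± 0.38 under MPH (adjusted p = 1.00) and -0.52 ± 0.22 under DMSO (adjusted p = 0.109). The DMSO difference passed with the culture as a block (adjusted p = 0.0262, where 53.5% of all genes and 4 of the 9 passed) and without the 2 h library of r1 (adjusted p = 0.039).

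Most of the fall of Irf8 lay between 1 h and 2 h, with -1.52 ± 0.38 under MPH (adjusted p = 0.0379) and -0.76 ± 0.22 under DMSO (adjusted p = 0.0189). The MPH value rested in part on the 1 h library of M4, without which it was -1.05 (adjusted p = 0.165). The MPH call was also lost without D4 (adjusted p = 0.0582), D5 (0.0832), D6 (0.061), M3 (0.19) or M4 (0.43), and with no filter on low values (0.08). The DMSO call was lost without D5 (adjusted p = 0.0815), D6 (0.0623), UKD (0.0774) or r2 (0.0549). It was also lost without the 1 h libraries of D4 and D6 (0.0765), or of D4, D6 and UKD (0.194). Without the 2 h library of r1 the difference was -0.96 (adjusted p = 0.0011). With the culture as a block the adjusted p was 0.000831 under MPH and 0.00281 under DMSO, where 32.9% and 49.2% of all genes passed. Irf5 and Irf8 were the 2 members that passed at 2 h against 1 h under DMSO, and neither did in D3 to D6 alone (adjusted p = 0.223 and 0.115).

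Irf3, the factor that TBK1 activates, and Irf2, the counterpart of Irf1, passed in no comparison as first fitted. Irf3 lay between 3.22 and 10.1 RPKM in the 9 MPH libraries and between 3.86 and 11.1 RPKM in the 21 DMSO libraries, and its log2 difference at 2 h was -0.24 ± 0.43 under MPH and -0.06 ± 0.21 under DMSO. Irf2 lay between 5.41 and 9.60 RPKM under MPH and between 4.64 and 9.69 RPKM under DMSO, with 0.08 ± 0.18 and 0.00 ± 0.09 at 2 h. Irf2 at 1 h under DMSO, at 0.18 ± 0.09 (limma adjusted p = 0.181), passed when values were rescaled by median-of-ratios (0.31, adjusted p = 0.0229), and at 2 h against 1 h it passed with array weights (-0.20, adjusted p = 0.0407). Their levels followed the culture. Of the variation of Irf3 over the 21 DMSO libraries, 94.7% lay between cultures and 0.285% between times, and for Irf2 76.6% and 8.14%. D3 and M2 had the lowest Irf3 at every time in their treatment.

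**Figure D2:**
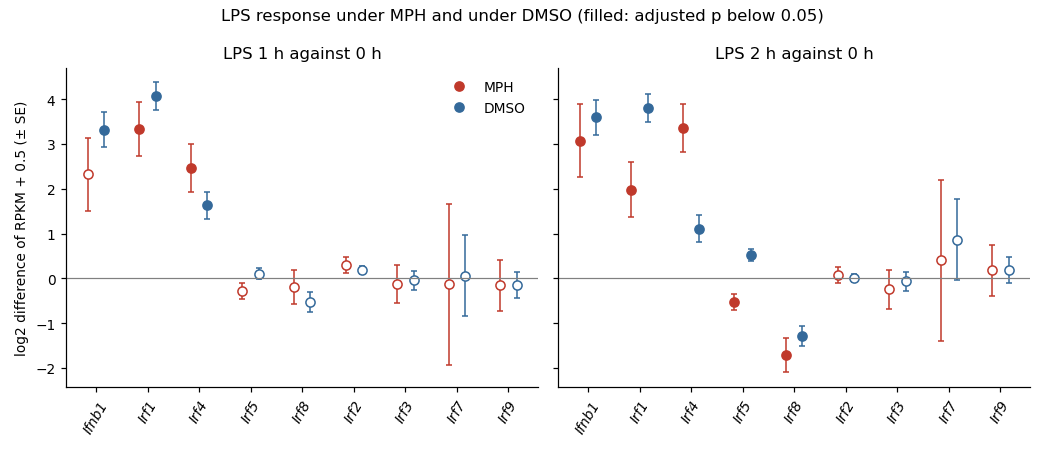
Log2 difference of RPKM + 0.5 at 1 h (left) and 2 h (right) of LPS against 0 h for each transcript, with SE. Red is MPH (3 cultures), blue is DMSO (7 cultures), and filled points passed an adjusted p of 0.05; Irf5 at 2 h lies at -0.52 under MPH and 0.52 under DMSO, and the points of Ifnb1 rest on 0 h values of 1 or 2 read steps.

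Irf7, the amplifier of interferon production, and Irf9, the DNA-binding subunit of the interferon-activated complex, differed far more between cultures than between times. At 0 h Irf7 stood at 1.83, 70.3 and 3.44 RPKM in the MPH cultures M2, M3 and M4. In the DMSO cultures it was 1.20 RPKM in D3, 66.2 in D4, 2.62 in D5, 9.57 in D6, 5.29 in UKD, 4.62 in r1 and 13.6 in r2. The highest value was 38.3 times the lowest under MPH and 55.0 times under DMSO. Irf9 varied less, at 7.41, 20.96 and 9.37 RPKM in M2, M3 and M4 and between 7.09 RPKM (D3) and 20.9 RPKM (D4) under DMSO. Between cultures lay 84.5% of the variation of Irf7 and 79.2% of that of Irf9 over the DMSO libraries, and between times 5.36% and 6.40%.

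M3 and D4 kept the highest Irf7 of their treatment at all times, with 56.1 and 52.8 RPKM at 2 h. At that time Irf7 was 2.04 RPKM in M2, 9.90 in M4, 1.62 in D3 and 5.54 in D5. In r1 it stood at 4.62, 2.68 and 29.2 RPKM at 0, 1 and 2 h. Neither gene passed in any comparison of times in limma, with log2 differences at 2 h of 0.40 ± 1.80 (Irf7, adjusted p = 0.913) and 0.18 ± 0.57 (Irf9, adjusted p = 0.874) under MPH and of 0.86 ± 0.91 (adjusted p = 0.44) and 0.19 ± 0.29 (adjusted p = 0.592) under DMSO. Under MPH the SE at 2 h was 0.31 for Irf7 and 0.15 for Irf9 with the culture as a block. Neither passed there (limma adjusted p = 0.286 and 0.334). With the culture as a block, Irf7 passed at 2 h under DMSO (adjusted p = 0.0243), where 76.9% of all genes and 6 of the 9 did, and was higher in 6 of 7 cultures. In the same fit Irf9 passed at 2 h against 1 h under DMSO (0.34, adjusted p = 0.0395), where 49.2% of all genes and 3 of the 9 did, and was higher in 4 of 7.

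The cultures with high Irf7 also had high interferon-stimulated genes before LPS. The summed level of 32 such genes at 0 h was 52.6 RPKM in M2, 556 in M3 and 68.3 in M4, and 60.8 in D3, 597 in D4 and between 67.8 and 254 in the other DMSO cultures. Of the 32 genes 7 had their highest 0 h level in M3 and the other 25 in D4. After 2 h of LPS the sums lay between 786 and 1888 RPKM under MPH and between 826 and 4434 RPKM under DMSO, with M2 and D3 lowest in their treatments and M3 and r1 highest. These are levels of single libraries, and no test between cultures was made.

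**Figure D3:**
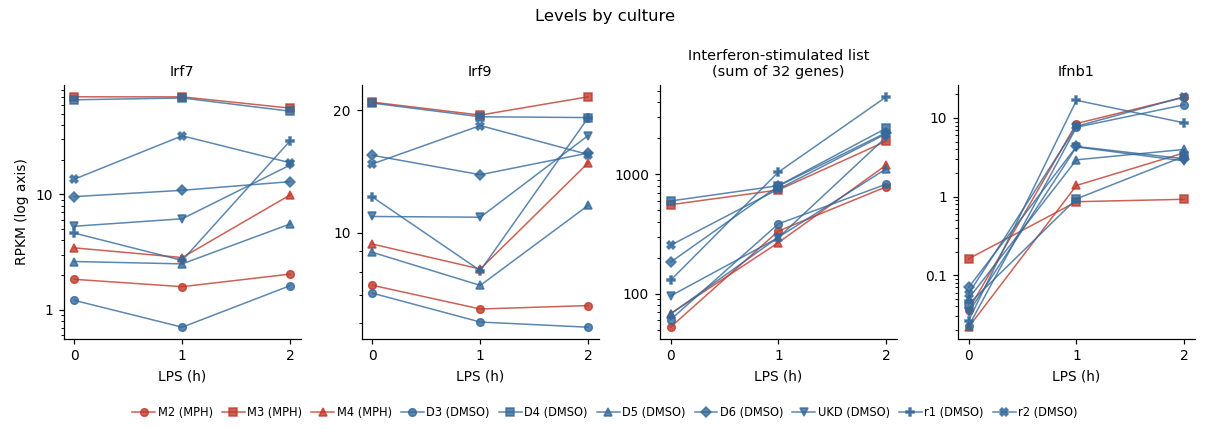
Irf7, Irf9, the sum of 32 interferon-stimulated genes and Ifnb1 in each culture (RPKM, log axes) against hours of LPS. Red lines are MPH cultures, blue lines DMSO cultures, and the marker shape names the culture; M3 and D4 run highest in Irf7 at every time, at 56.1 and 52.8 RPKM at 2 h.

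MPH was compared with DMSO at each time in M2 to M4 and D3 to D6, the cultures of like names. None of the 9 genes passed limma's test at 0 h (0.869% of 10239 genes did), 1 h (0%) or 2 h (0.869%). The numbers with an unadjusted p below 0.05 were 1, 0 and 4 of 9, beside 685, 327 and 930 of all 10239 genes. The libraries of the treatments did not overlap for 2 members at 0 h (Irf4 and Irf8, where 7.54% of all genes did not overlap), 0 at 1 h (1.48%) and 2 at 2 h (Irf5 and Irf8, 9.5%). The LPS responses were not called different for any member at 1 h (0% of genes) or 2 h (0.107%). At an unadjusted p below 0.05 were 0 and 2 of 9, beside 83 and 318 of all 10239 genes.

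At 2 h, 4 factors had the largest differences relative to their error. Irf5 was at 31.0, 32.8 and 34.4 RPKM in M2, M3 and M4, against 40.6, 61.4, 53.6 and 51.6 RPKM in D3, D4, D5 and D6, a log2 difference of -0.64 ± 0.17 (limma adjusted p = 0.0809). Irf8 was at 1.76, 3.29 and 2.52 RPKM under MPH, against 5.33, 8.54, 6.09 and 5.60 RPKM under DMSO, or -1.20 ± 0.36 (adjusted p = 0.151). For both of these all MPH libraries lay below all DMSO libraries. Irf4 was at 13.5, 2.42 and 4.68 RPKM under MPH, against 4.20, 0.893, 2.21 and 0.630 RPKM under DMSO, or 1.50 ± 0.50 (adjusted p = 0.222). Irf1 was at 13.2, 44.6 and 52.5 RPKM under MPH, against 34.8, 96.5, 98.0 and 140 RPKM under DMSO, or -1.37 ± 0.57 (adjusted p = 0.413). In these last 2 genes the groups overlapped, with the DMSO culture D3 highest in Irf4 and lowest in Irf1 of its group, and the MPH culture M2 likewise. M2 and D3 are among the cultures that deviated together, which these tests do not take into account because no label pairs them. Without D3, Irf5 passed (-0.75, adjusted p = 0.039), and without the 1 h library of M4, which enters the shared variance, Irf8 did (-1.20, adjusted p = 0.0445).

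Against all 7 DMSO cultures at 2 h, 3 of the 9 passed in limma, where 3.91% of all genes did. These were Irf4 (1.78 ± 0.45, adjusted p = 0.0227) and, lower under MPH, Irf5 (-0.71 ± 0.17, adjusted p = 0.0124) and Irf8 (-1.34 ± 0.34, adjusted p = 0.022). Irf1 stood at -1.58 ± 0.48 (adjusted p = 0.0632). No MPH culture shares the name series of UKD, r1 and r2.

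Before LPS, Irf8 was at 6.89, 10.5 and 10.8 RPKM under MPH, against 11.6, 19.3, 21.6 and 24.1 RPKM under DMSO, a log2 difference of -0.97 ± 0.36 (limma adjusted p = 0.412). Irf4 at 0 h was at 0.0586, 0.118 and 0.0776 RPKM under MPH, against 0.181, 0.361, 0.216 and 0.192 RPKM under DMSO, or -0.33 ± 0.50 (adjusted p = 1.00). It thus lay below DMSO at 0 h, overlapped it at 1 h and was higher in mean at 2 h. At 1 h Irf8 was at 4.05, 7.68 and 16.01 RPKM under MPH, against 8.0, 16.6, 16.3 and 12.5 RPKM under DMSO, or -0.65 ± 0.36 (adjusted p = 1.00), and -1.13 without the library of M4 (adjusted p = 0.15). The neutrophil marker sum at 0 h was 39.3 to 51.9 RPKM under MPH and 5.24 to 46.7 RPKM under DMSO (D3 to D6), ranges that overlap, and its part in these values was not tested.

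Ifnb1 after LPS showed no difference between treatments larger than its spread, and at 0 h its values of 1 or 2 read steps allow no comparison. At 2 h it ranged 20.0-fold among the 3 MPH cultures and 4.87-fold among the 4 DMSO cultures D3 to D6. Exact two-sided permutation tests of the log2 means gave p = 0.686 at 1 h (difference -0.39) and p = 0.971 at 2 h (exact, difference -0.19). The 2 h difference was -1.18 without M2, 0.69 without M3 and 0.30 without D3. The smallest p that 35 arrangements allow is 0.0286. The limma SE was 0.76, and a difference of that size would not have been detectable. Irf7 and Irf9 differed by 0.23 ± 1.68 and 0.10 ± 0.53 at 2 h, Irf3 by -0.32 ± 0.40 and Irf2 by 0.07 ± 0.17, all with an adjusted p of 1.00.

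The difference between the LPS responses of Irf5 at 2 h was -0.88 ± 0.24 (limma adjusted p = 0.357). It passed with the culture as a block (adjusted p = 0.00092, where 1.43% of genes and 1 of the 9 passed) and against all 7 DMSO cultures (-1.04 ± 0.23, adjusted p = 0.0247, where 0.599% of genes and 1 of the 9 passed). For Irf4 the difference was 1.82 ± 0.71 and for Irf1 -1.50 ± 0.80 (adjusted p = 1.00 for both). With the culture as a block the limma adjusted p was 0.137 for Irf4 and 0.0849 for Irf1. Against all 7 DMSO cultures it was 0.119 and 0.378, so neither gene passed in these fits.

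**Figure D4:**
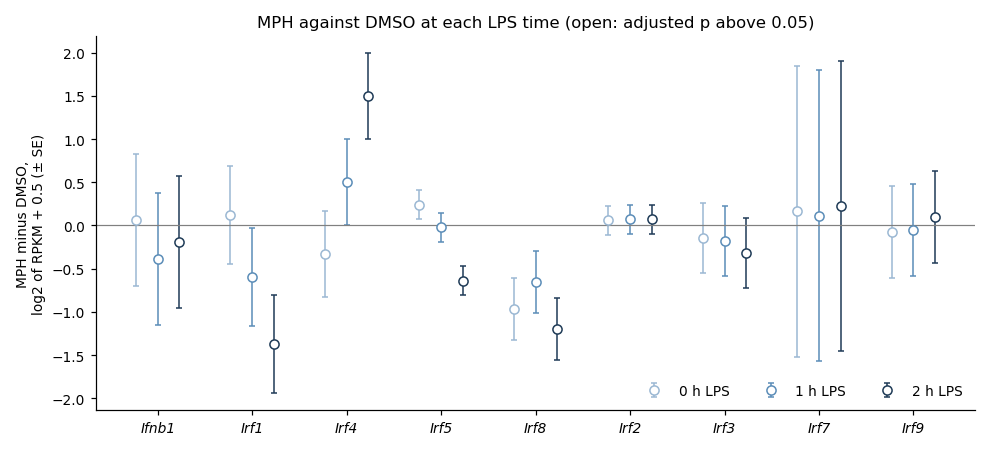
MPH minus DMSO at 0, 1 and 2 h of LPS for each transcript, as log2 of RPKM + 0.5 with the SE (3 MPH and 4 DMSO cultures). All points are open because none passed an adjusted p of 0.05; at 2 h Irf4 lies highest at 1.50 and Irf1 lowest at -1.37, and Irf7 has the widest bars.

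The pathway around these genes was described by lists. Of 14 genes from TLR4 to TBK1, 6 were higher and 1 lower at 2 h against 0 h under MPH, and 7 were higher and 2 lower under DMSO (median log2 difference 0.46 and 0.36, against -0.23 and -0.25 over all genes). Over all genes, 611 were higher and 1510 lower of 10239 under MPH (20.7% called), and 1075 higher and 4454 lower of 10212 under DMSO (54.1% called), and the counts of the lists at 2 h stand beside these. As with the members, a gene that reached 1 RPKM only after LPS had to differ from 0 h to be tested. The list counts against 0 h are therefore a description only. Cd14, the LPS co-receptor, rose by 2.37 ± 0.28 under MPH (limma adjusted p = 1.17e-05) and by 3.41 ± 0.15 under DMSO (adjusted p = 1.27e-12). Tank, an adaptor of TBK1, rose by 1.71 ± 0.38 (adjusted p = 0.00381) and 1.75 ± 0.17 (adjusted p = 1.24e-07). Cd14 was the member of this list that passed between treatments. At 0 h it was 2.40 ± 0.26 higher under MPH (192 ± 23.9 RPKM, SD, n = 3, against 39.6 ± 5.95 RPKM, SD, n = 7, under DMSO; adjusted p = 8.25e-05 against D3 to D6), and at 2 h 1.28 ± 0.26 higher (adjusted p = 0.0258).

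Downstream of the ligand, 1 of 10 receptor and JAK-STAT genes was called higher at 2 h under MPH and 5 under DMSO, with none lower. Of all genes 20.7% and 54.1% were called in either direction. Called higher were 611 of 10239 under MPH and 1075 of 10212 under DMSO. The median log2 difference of this list was 0.27 under MPH (3 cultures) and 0.26 under DMSO (7 cultures), so the counts do not show a smaller response under MPH. The gene called under MPH was Jak2, a kinase of cytokine receptors, at 2.30 ± 0.43 under MPH (limma adjusted p = 0.0012), and it rose by 2.49 ± 0.20 under DMSO (adjusted p = 5.55e-09). Ifngr1, a chain of the interferon gamma receptor, rose under DMSO by 1.03 ± 0.10 (adjusted p = 1.59e-07). Stat3 was higher under MPH than DMSO at 2 h by 0.83 ± 0.18 (adjusted p = 0.0302). Of 32 interferon-stimulated and IRF3 target genes, 31 passed the filter. At 2 h 8 were higher under MPH and 14 under DMSO, with none lower (median 0.68 and 1.05). These stand beside the same 611 of 10239 and 1075 of 10212 genes called higher. Cxcl10, a chemokine gene that IRF3 and interferons induce, reached 508 ± 94.3 RPKM at 2 h under MPH (SD, n = 3) and 1134 ± 596 RPKM under DMSO (SD, n = 7). Its log2 rise was 7.83 ± 0.76 under MPH (adjusted p = 1.16e-06) and 8.50 ± 0.46 under DMSO (adjusted p = 2.09e-11). Ifih1, an RNA sensor gene, rose by 3.20 ± 0.51 under MPH (adjusted p = 0.000286) and by 2.96 ± 0.29 under DMSO (adjusted p = 1.22e-07). None of the 31 passed limma's test between MPH and DMSO at 0, 1 or 2 h, or for the difference of responses, and 0 had an unadjusted p below 0.05 in any of these.

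Among 18 partners and regulators of the IRF proteins, 14 passed the filter. Of these 4 were higher and 2 lower at 2 h under MPH, and 8 higher and 4 lower under DMSO, against 20.7% and 54.1% of all genes called in either direction. Prdm1, called higher under both treatments, reached at most 0.85 RPKM at 0 h under MPH and 0.75 RPKM under DMSO. It passed the filter only through libraries with LPS. Socs3, an inhibitor of JAK-STAT signalling, rose by 6.61 ± 0.35 under MPH (limma adjusted p = 8.11e-10) and 6.85 ± 0.17 under DMSO (adjusted p = 2.32e-16), while Irf2bp2, a corepressor that binds IRF2, fell by 1.79 ± 0.24 (adjusted p = 3.87e-05) and 2.01 ± 0.19 (adjusted p = 6.17e-08). Of 7 factors that assemble on the Ifnb1 enhancer, 2 were higher and 0 lower at 2 h under MPH, and 2 were higher and 2 lower under DMSO, against the same shares of all genes. Nfkb1, a subunit of NF-κB, rose by 2.40 ± 0.34 under MPH (adjusted p = 7.91e-05) and 2.17 ± 0.20 under DMSO (adjusted p = 3.96e-08). Jun, a subunit of AP-1, fell by 2.08 ± 0.39 at 2 h under DMSO (adjusted p = 0.000211). In these last 2 lists 0 genes passed limma's test between MPH and DMSO at any time. At an unadjusted p below 0.05 were 1 partner gene at 2 h and 0 otherwise, beside 930 of all 10239 genes at 2 h. The 18 other interferon ligand genes, alpha, gamma and lambda types included, did not pass the filter, and the highest value of any of them in the 30 libraries was 0.33 RPKM, in the shallowest library.

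Transcripts whose levels ran most like each member were found over the 30 libraries, by Pearson's r of log2(RPKM + 0.5) among 10355 genes. The libraries share cultures and times, so r is a description. Most like Ifnb1 were Prdm1 (0.91), which encodes the repressor BLIMP1, Sgms1 (0.90), Pvr (0.89), Cdk5r1 (0.89) and Rel (0.89), an NF-κB subunit gene. Irf1 ran with Dusp2 (0.95), Cd83 (0.93) and Icam1 (0.92), and Irf4 with F3 (0.88), Errfi1 (0.88) and Cdk5r1 (0.87). Irf7 ran with the interferon-stimulated genes Dhx58, Xaf1 and Zbp1 (0.98, 0.98 and 0.97), and Irf9 with Irf7, Xaf1 and Usp18 (0.96 each). Irf8 ran with Hip1 (0.93), Tmem273 (0.93) and Dnmt3a (0.92), and Irf3 with Rnaseh2c (0.96), Ssbp4 and Josd2 (0.95 each). Irf2 (Arhgap18, 0.78) and Irf5 (Myo1g, 0.76) had no transcript above 0.79. Among the members themselves r was 0.73 between Ifnb1 and Irf4, 0.69 between Ifnb1 and Irf1 and -0.65 between Irf4 and Irf8.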

How the data were processed

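RNA sequencing libraries of 30 samples of mouse bone marrow-derived macrophages were used. The deposited table holds RPKM values that the authors computed, with 1 line for each of 44401 RefSeq transcripts and 1 column per library. FastQC, cutadapt, HISAT2, SAMtools and the mm9 build appear, with no version or order, per the submitters' processing notes. The counting program, its annotation and strand use: not given in the sources used here. Total RNA and a TruSeq kit were used, per the labels' protocols. The 6 h of LPS that the design mentions was not analysed here.

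For each symbol the line with the highest mean was kept. The test was limma-trend (limma 3.58.1, R 4.3.3) on log2(RPKM + 0.5), keeping a gene if 3 or more libraries reached 1 RPKM, two-sided, with Benjamini-Hochberg adjustment over all genes and a threshold of 0.05. M2 to M4 with D3 to D6 (21 libraries, 10239 genes) were fitted together, each group having its own mean. This fit gave MPH against DMSO, LPS under MPH and the differences of responses. LPS under DMSO came from the 21 libraries of that treatment (10212 genes), adjusted for the series a culture's name belongs to (r, UKD or D). Those 2 fits share the D3 to D6 libraries. Ifnb1 was also tested by exact permutation. Depth came from the smallest steps between low values and GENCODE lengths, and covers counted reads. The limma test of MPH against DMSO at 2 h was also run on simulated data with independent noise in each library. Those data lack the shared deviations of libraries of a culture, so they do not check the tests for these.

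Alternatives changed the pseudocount (0.1 or 1), the filter, the scaling (median-of-ratios), the transcript lines, array weights, the libraries and cultures used, and the block. Libraries of a culture name at different times deviated together in all 30 pairs (correlation 0.62 or more), so the culture is a block in an alternative fit. The named genes are the 9 members, up to 4 genes of each list with the smallest p past the threshold in a comparison, and the 3 most alike genes per member (5 for Ifnb1); not every gene so selected is printed. The members and lists were chosen with earlier results of these data known. Promoter stretches are from RefSeq, as tabulated for GRCm38.p6.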

Additional observations from a re-analysis of the deposited data

Results flagged for a closer look

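In 4 cases a library lay apart from the other 6 of their group by more than Dixon's 95% limit (a gap over range above 0.568), among 27 groups of 7 DMSO libraries, where chance flags about 5% of groups. Irf8 was lowest in D3 at 0 h (11.6 RPKM) and at 1 h (8.0 RPKM), and highest in r1 at 2 h (20.1 RPKM). Irf9 was lowest in D3 at 2 h (5.84 RPKM). The cause of these values was not tested.

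Irf5 changed in opposite directions under the treatments in every culture, from 0 h to 2 h and from 1 h to 2 h. Every member and every pair of times was searched for such a split. The share of all genes that show it was not counted, so it is a description. From 0 h to 2 h its mean within-culture log2 change was -0.52 ± 0.11 under MPH (SD, n = 3) and 0.52 ± 0.35 under DMSO (SD, n = 7), a difference of -1.04. From 1 h to 2 h it was -0.25 ± 0.20 under MPH and 0.42 ± 0.20 under DMSO, a difference of -0.67. The first difference is the one tested above as a difference of LPS responses, and the second was not tested.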

How the results depend on the processing

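Over 99 results of single members (9 genes in 11 comparisons) and 1710 alternative values, 1648 kept their side of the threshold, 24 passed only in the alternative and 38 lost the call. The sign changed in 121 of the 1710, 9 of them by 1 SE or more, and in none of these was the value called in either fit. The number of members called at 2 h against 1 h under DMSO, 2, became 4 with array weights, 1 with no filter, with no covariate, without the 2 h library of r1 or without the 1 h libraries of D4 and D6, and 0 in D3 to D6 alone or without the 1 h libraries of D4, D6 and UKD. Leaving out a culture gave 0 to 2 there. Under MPH, leaving out a culture gave 1 to 2 at 1 h, 2 to 5 at 2 h and 0 to 1 at 2 h against 1 h. With no filter it was 3 at 2 h and 0 at 2 h against 1 h, where it was also 0 without the 1 h library of M4. For MPH against DMSO, array weights gave 1 at 0 h and 2 at 2 h. At 2 h it was 3 with all 7 DMSO cultures, 1 without the 1 h library of M4, and 0 or 1 without a culture (1 without D3). The difference of responses at 2 h gave 1 with all 7 DMSO cultures. With the culture as replicate block, 4 members were called at 1 h and 3 at 2 h against 1 h under MPH, and 1 for the difference of responses at 2 h. At 2 h against 0 h under MPH the members called in that fit stayed the same. The numbers 3 and 4 shared by D and M names do not pair the samples (correlations between -0.64 and -0.36), and with that number as replicate block 1 member, Irf5, passed at 2 h (-0.54, adjusted p = 0.03). The log2 difference of Ifnb1 between MPH and DMSO at 2 h ran from -1.18 without M2 to 0.69 without M3, and was 0.30 without D3. Median-of-ratios scaling moved the median of all genes by 0.13 and 0.21 at 1 h and 2 h under DMSO, by 0.19 at 2 h and 0.11 at 2 h against 1 h under MPH, and by less than 0.1 elsewhere. For most of these alternatives the share of all genes called was not counted. A changed number of members there describes the fit and is not a result about the members. Except for the block and that scaling, the cause of a change was not tested. Low values of Ifnb1 and Irf4 at 0 h limit their log2 differences.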

Other observations

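Ifnb1 and Irf7 stood in different orders across the cultures. At 2 h Ifnb1 was at 18.4 RPKM in M2, which had the lowest Irf7 of the MPH cultures (2.04 RPKM), and at 0.924 RPKM in M3, which had the highest (56.1 RPKM). Among DMSO cultures D3 had 14.7 RPKM of Ifnb1 and 1.62 RPKM of Irf7, and D4 had 3.26 RPKM of Ifnb1 and 52.8 RPKM of Irf7. The DMSO cultures r1 and r2 did not follow this order, r1 with 8.66 RPKM of Ifnb1 and 29.2 RPKM of Irf7, and r2 with 18.6 RPKM of Ifnb1 and 18.8 RPKM of Irf7. Over the 30 libraries the correlation of the pair was -0.14. The cultures were picked for their Irf7 level, and no test was made.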
